A study of Mus musculus with 56 samples.

Results

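Bcl6 and 6 genes that mark or steer the change of a B cell into a plasma cell, namely Irf4, Prdm1, Xbp1, Fkbp11, Igj and Sdc1, were measured in mouse blood after an internal dose of 90Sr. The 7 genes were taken by name from the 30199 gene names on a whole-genome array, and each had 1 probe. The rule uses names and no threshold on a measured value, but the genes were proposed with earlier results of these data known. C57BL/6 mice, 10 to 12 weeks old on arrival, received 200 kBq of 90Sr as the chloride into the tail vein, with a trace of 85Sr for counting, and control mice received the saline vehicle. Whole blood was taken 4, 7, 9, 25 or 30 days after injection, with controls of the same day, from 4 control and 4 irradiated mice at day 4 and from 6 and 6 at each other day, so that 56 arrays held 1 mouse each in 10 groups. The injected 90Sr settles mainly in bone. The paper reports that the body content fell with time but part of it remained, so the marrow was irradiated throughout. A later day stands for both a longer time and a larger absorbed dose.

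A B cell that meets its antigen can enter a germinal centre, where Bcl6, a zinc finger repressor, holds it in the dividing B cell state. Leaving that state for antibody secretion runs through Irf4 and through Prdm1, which encodes the repressor Blimp-1 and shuts down the B cell programme. Xbp1 then enlarges the endoplasmic reticulum, where Fkbp11, a peptidyl-prolyl isomerase, is made, Igj supplies the joining chain of polymeric IgM and IgA, and Sdc1, or CD138, is the surface proteoglycan by which plasma cells are sorted. Bcl6 and Prdm1 repress each other. Plasma cells are rare in circulating blood, and Bcl6, Irf4, Prdm1 and Xbp1 are also made by other leukocytes, among them T cells and myeloid cells.

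Bcl6 and Irf4 were lower in irradiated than in control blood at all 5 days, Bcl6 by 2.2 to 4.2-fold and Irf4 by 3.50 to 9.98-fold, the last against day 30 arrays of which 3 of 6 were not above background for Irf4, and in each case all 28 irradiated mice lay below every control of their day. Xbp1 was 1.45 to 1.74-fold lower, a smaller difference that missed the 2-fold requirement. Igj, the only member that encodes part of a secreted antibody, differed little between the groups at any day. Prdm1, dim on most arrays, was lower without passing the call in the reported fits. It passed in some alternative fits, such as within the shared slide of day 7 and at day 9 with arrays scaled to a reference. Its spots were mostly dim there too. Fkbp11 and Sdc1 gave signals too close to background on most arrays to follow. A gene was called where the fold change was at least 2 and the unadjusted p of limma, a linear model with a spread shared across genes, was below 0.001. By that call 2 of the 6 tested members, Bcl6 and Irf4, passed as lower on each of the 5 days and 0 as higher, when the share of all genes tested that were called lower came to 23.1%, 16.1%, 17.9%, 26.5% and 21.3% in the order of the days. Over all genes tested 34.4% were called lower and 28.6% higher at 1 day or more, and 8.4% lower at all 5 days. Lower calls were therefore common across the array, and a count of 2 among 6 genes has to be read against that background.

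The arrays carried between 17809 and 24698 spots well above background in control blood and between 14389 and 22524 in irradiated blood. All levels given here are log2 of the processed spot intensity minus the median over all gene spots of the same array, so 0 is the middle of the array. The unscaled median was itself lower in irradiated blood, with a difference between -0.939 and -0.592 log2 units according to the day. Of 14584 genes tested, the 7 genes lost Sdc1, which was not above background on 22 of 56 arrays and so failed the limit of 25%. Each slide carried 4 arrays, and 4 of the 14 slides held 2 control and 2 irradiated mice of the same day, 1 slide for each day but day 4. At day 4 each group had a slide of its own, and slide and irradiation cannot be told apart there. In whole blood, fewer cells of a type and less RNA per cell cannot be told apart either. The paper reports that manual counts of blood smears, titled lymphocyte counts in its supplement, did not differ significantly between the groups at any day. Its text describes no separate count of B cells.

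**Figure D1:**
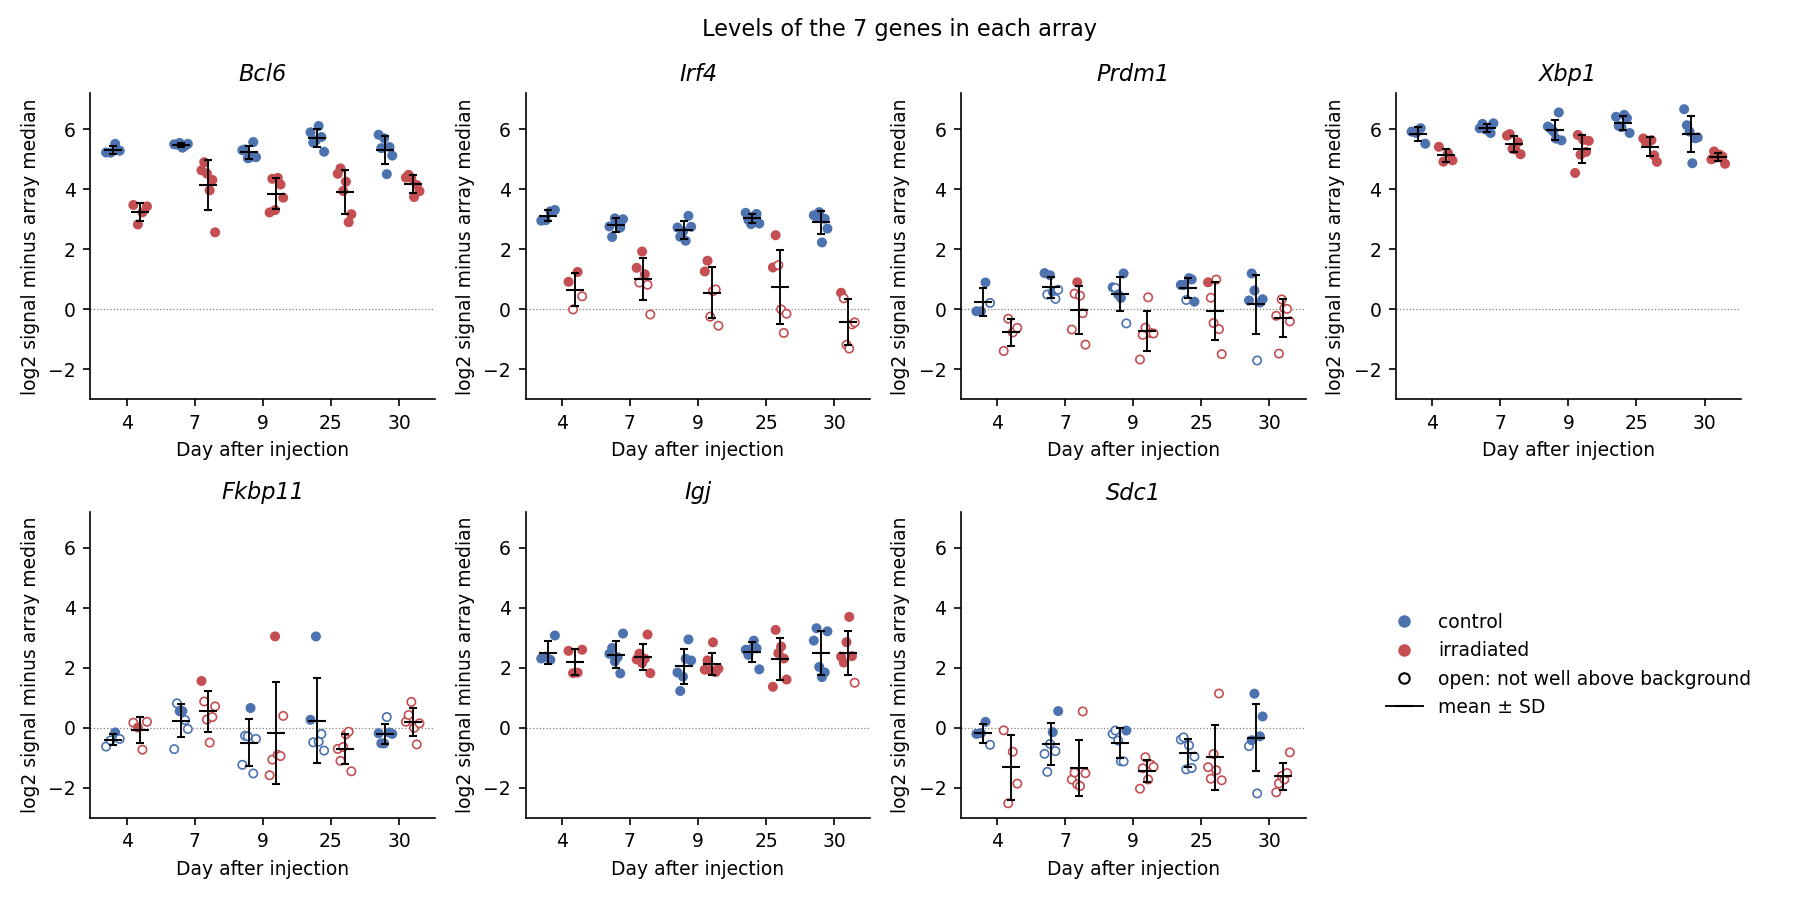
Level of each of the 7 genes on each of the 56 arrays (log2 processed intensity minus the array median) by day after injection, control and irradiated mice side by side. The points of Bcl6 and Irf4 separate completely at all 5 days, whereas those of Igj and Fkbp11 overlap.

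Bcl6 was read by a probe at chr16:23965160-23965219 (mm9) and was well above background on all 56 arrays. At day 4 the control levels of Bcl6 were 5.23, 5.23, 5.52 and 5.29, and the irradiated levels were 3.48, 2.83, 3.24 and 3.44. The highest irradiated mouse thus lay well under the lowest control. At day 7 the 6 control values ran from 5.39 over a median of 5.50 to 5.55, and the irradiated values from 2.57 over 4.42 to 4.91. The controls of day 7 were the tightest group and 1 irradiated mouse, replicate 6, lay far below the rest. At day 9 Bcl6 ran from 5.04 over 5.19 to 5.58 in controls and from 3.23 over 3.95 to 4.39 in irradiated mice. At day 25 the control range was 5.26 to 6.12 with a median of 5.70 and the irradiated range 2.91 to 4.70 with a median of 4.10. At day 30 the controls lay between 4.51 and 5.83 around a median of 5.40 and the irradiated mice between 3.75 and 4.49 around 4.27. The distance between the lowest control and the highest irradiated mouse was smallest at this last day, where control replicate 4 stood low.

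In the limma fit of day 4 the level of Bcl6 changed by -2.07 ± 0.18 (SE, n = 4 and 4), with a Benjamini-Hochberg adjusted p of 1.48e-04 over all genes tested. The change was -1.33 ± 0.31 at day 7 (adjusted p = 0.00211) and -1.37 ± 0.24 at day 9 (adjusted p = 4.01e-04). At day 25 it was -1.79 ± 0.30 (adjusted p = 2.26e-04) and at day 30 -1.14 ± 0.25 (adjusted p = 8.17e-04). The day 7 call was the least secure, since it was lost on leaving out any of 9 of the 12 mice, each of the 6 controls and irradiated replicates 3, 4 and 5, with a change between -1.48 and -1.01 over all 12 omissions. No difference of the effect between days was found for Bcl6 in the fit of all 10 groups (F test of the interaction, adjusted p = 0.355), when 22.5% of all genes tested passed that test.

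Irf4, a factor needed for both B cell activation and plasma cell formation, was read at chr13:30858532-30858591 (mm9). At day 4 the control levels of Irf4 were 2.96, 2.98, 3.27 and 3.32, against 0.92, 0.00, 1.25 and 0.44 in irradiated mice. The groups were far apart and the irradiated levels were more scattered. At day 7 Irf4 ran from 2.41 over 2.84 to 3.04 in controls and from -0.17 over 1.03 to 1.93 in irradiated mice. At day 9 the control values were 2.29 to 3.12 around 2.66 and the irradiated values -0.54 to 1.62 around 0.64. The same gap was present at the late days. At day 25 the controls lay from 2.84 to 3.22 with a median of 3.04 and the irradiated mice from -0.79 to 2.47 with a median of 0.70. At day 30 Irf4 ran from 2.23 over 3.05 to 3.24 in controls and from -1.31 over -0.47 to 0.55 in irradiated mice, the lowest levels of the course.

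The change of Irf4 was -2.48 ± 0.26 at day 4 (adjusted p = 1.51e-04), -1.81 ± 0.28 at day 7 (adjusted p = 2.03e-04) and -2.09 ± 0.33 at day 9 (adjusted p = 1.97e-04). It reached -2.30 ± 0.43 at day 25 (adjusted p = 4.39e-04) and -3.32 ± 0.32 at day 30 (limma, adjusted p = 1.22e-05). Irf4 kept its call at every day whichever single mouse was left out. The larger change at day 30 was not a difference between days by the interaction test over all 5 days (adjusted p = 0.152). Irf4 was well above background on all 28 control arrays but on only 2, 3, 2, 2 and 1 irradiated arrays at the 5 days in turn, so its low levels are less exact than its fold changes make them look.

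**Figure D2:**
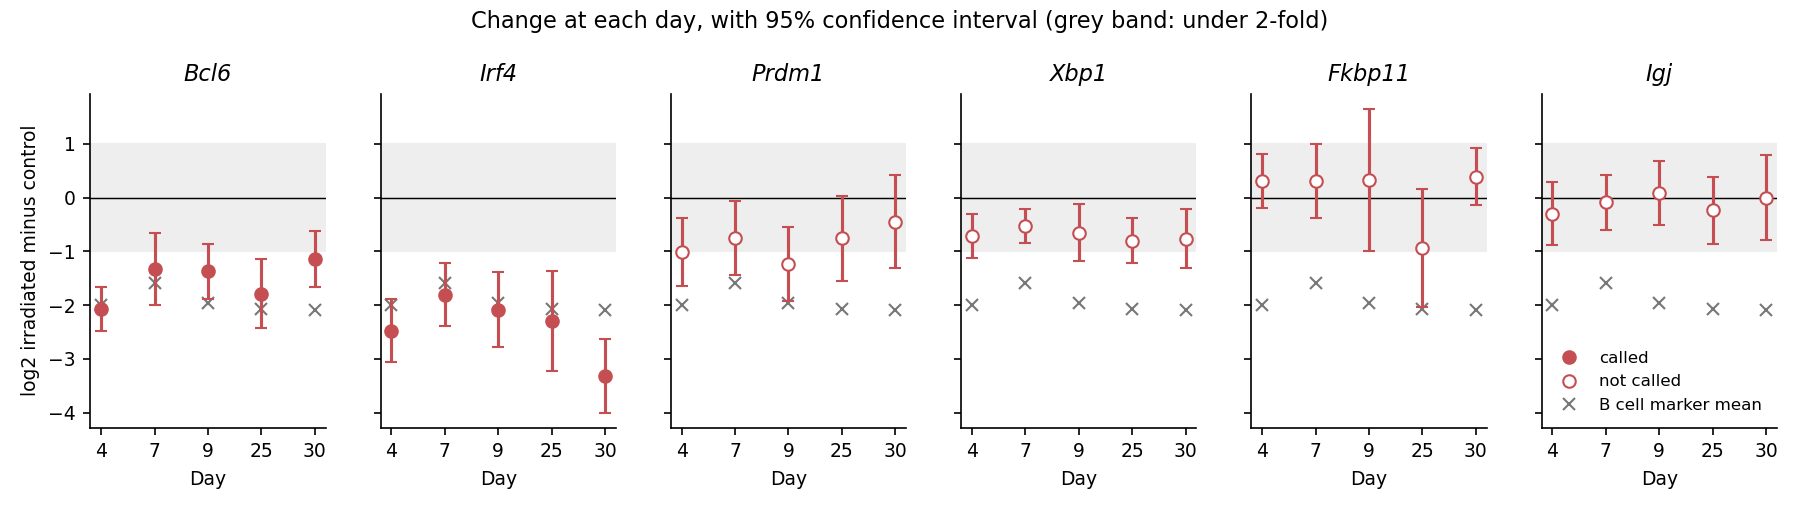
Change in level (irradiated minus control, log2) of the 6 tested genes at each day with its 95% confidence interval from limma, 4 mice a group at day 4 and 6 at the other days. Crosses mark the mean change of the 18 B cell markers and filled points are called. Bcl6 and Irf4 lie below the grey band of changes under 2-fold at all 5 days, Xbp1 lies inside it below 0, and Igj lies around 0.

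Where slides carried both groups, Bcl6 and Irf4 were lower in both irradiated than in both control mice of all 4 slides. Within slides the change of Bcl6 from day 7 to day 30 was -1.90, -1.53, -0.89 and -0.83, each from 2 and 2 mice and none past the call (limma with slide as a block, adjusted p = 0.0142, 0.0251, 0.226 and 0.197). The late values were smaller in size than those over all mice. For Irf4 the within-slide change was -1.98, -1.49, -1.09 and -2.40 at the same days, and only the day 30 value was called (adjusted p = 0.0284). Prdm1 passed the call within the slide of day 7, with a change of -1.78 (limma with slide as a block, adjusted p = 0.00626), and its other within-slide values of -1.63, 0.02 and -1.13 did not. Of the 4 Prdm1 spots on that day 7 slide only control replicate 1 was well above background. Irradiated replicate 6 was not above background there. At day 7 the Bcl6 levels on the shared slide were 5.51 and 5.49 in control and 4.64 and 2.57 in irradiated mice. On the shared slide of day 30 they were 5.42 and 5.13 in control and 4.39 and 4.49 in irradiated mice. Irradiated replicates 2 to 5 of day 7 and 3 to 6 of day 30 lay on slides scanned on another date than the rest. Without them the Bcl6 change at day 7 was -1.88 and the Bcl6 change at day 30 was -0.89. Bcl6 then passed the call at neither day (limma, adjusted p = 0.0774 at day 30).

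The secretory factor Xbp1, read at chr11:5425816-5425875 (mm9), was well above background on all 56 arrays. At day 4 Xbp1 was at 5.93, 5.89, 6.04 and 5.53 in controls and at 5.42, 4.93, 5.21 and 4.97 in irradiated mice. At day 7 it ran from 5.88 over 6.02 to 6.21 in controls and from 5.17 over 5.47 to 5.85 in irradiated mice. Both days were free of overlap. At day 9 the control range was 5.64 to 6.57 with a median of 5.98 and the irradiated range 4.55 to 5.82 with a median of 5.44. At day 25 the values were 5.88 to 6.49 around 6.25 against 4.92 to 5.70 around 5.58. At day 30 they were 4.87 to 6.68 around 5.83 against 4.86 to 5.27 around 5.08. At days 9 and 30 the groups overlapped, at day 30 through the low control replicate 4, and in all 21 of 28 irradiated mice lay below every control of their day.

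The change of Xbp1 was -0.71 ± 0.18, -0.54 ± 0.15, -0.65 ± 0.25, -0.80 ± 0.20 and -0.77 ± 0.26 (SE) from day 4 to day 30, with adjusted p of 0.00704, 0.00613, 0.0384, 0.00243 and 0.0148 in limma. Every one of these values passed an adjusted p of 0.05 and none reached 2-fold. With the arrays scaled to 1 reference array Xbp1 did reach 2-fold and was called at days 9, 25 and 30, with changes of -1.05, -1.20 and -1.18, when the median of all genes stood at -0.71, -0.83 and -0.67. No change of the Xbp1 effect between days was found (interaction, adjusted p = 0.929). Xbp1 becomes active through a splicing step of its mRNA, and that step was not measured here.

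Igj, the J chain gene, was read at chr5:88949919-88949978 (mm9) and was well above background on 55 of 56 arrays. At day 4 Igj stood at 2.31, 2.38, 2.27 and 3.08 in controls and at 2.57, 1.83, 1.84 and 2.61 in irradiated mice. At day 7 it ran from 1.82 over 2.41 to 3.15 in controls and from 1.82 over 2.30 to 3.11 in irradiated mice, nearly the same range. At day 9 the controls lay from 1.23 to 2.95 around 2.05 and the irradiated mice from 1.86 to 2.85 around 1.96. At day 25 the ranges were 1.95 to 2.91 around 2.62 and 1.37 to 3.27 around 2.40. At day 30 they were 1.69 to 3.32 around 2.47 and 1.51 to 3.70 around 2.38. Control and irradiated mice overlapped at all 5 days.

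Igj changed by -0.30, -0.08, 0.09, -0.24 and -0.00 from day 4 to day 30, with adjusted p between 0.333 and 0.995 in limma. The 95% intervals of these changes were -0.88 to 0.29, -0.60 to 0.43, -0.51 to 0.68, -0.86 to 0.39 and -0.79 to 0.79 in the same order. Under this scaling a 2-fold change in either direction lay outside all 5. With 1 reference array the Igj changes ran from -0.64 to -0.31. With arrays centred on their 75th percentile they ran from 0.18 to 0.48. Intervals under those scalings are not given here, so the 2-fold limit holds for the reported scaling only. The sign of these small changes depended on the scaling, which the closing section gives.

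Prdm1, the Blimp-1 gene read at chr10:44157089-44157148 (mm9), was dim, with 22 of 56 arrays well above background. At day 4 Prdm1 was at -0.06, -0.06, 0.90 and 0.21 in controls and at -1.39, -0.31, -0.77 and -0.62 in irradiated mice, without overlap. No irradiated array of that day was well above background, and the control mean was at least 1.31-fold higher when the irradiated arrays were set to their lowest reliable signal. The fitted changes of Prdm1 were -1.02, -0.75, -1.23, -0.76 and -0.45 from day 4 to day 30 (limma, adjusted p = 0.0111, 0.0506, 0.00516, 0.0764 and 0.336). Over all days 15 of 28 irradiated mice lay below every control of their day, 0 of 6 of them at day 30. For days 9 and 30, when again no irradiated array was well above background, the lowest reliable signal was above the control mean and no bound on the fold could be given.

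Fkbp11 at chr15:98554809-98554868 (mm9) was well above background on 14 arrays and Sdc1 at chr12:8799383-8799442 (mm9) on 10, all of them controls for Sdc1. Group means of Fkbp11 lay between -0.70 and 0.55, and its changes of 0.31, 0.31, 0.33, -0.94 and 0.38 gave adjusted p from 0.111 to 0.697 in limma. The day 25 value rested on control replicate 3 alone, at 3.05 when the other controls lay between -0.76 and 0.27, and was -0.38 without that mouse. The day 9 value rested on irradiated replicate 3, at 3.05 when the others lay between -1.58 and 0.40, and was -0.32 without it. Sdc1 was well above background on 3, 2, 1, 0 and 4 control arrays and on 0 irradiated arrays at the 5 days. Its untested difference of means was -1.13, -0.80, -0.93, -0.15 and -1.28. CD138, the defining surface marker of plasma cells, was thus at or near the detection limit in this blood, in control mice as well.

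None of the 6 tested members differed between the 5 groups of control mice (F test in the fit of all 10 groups, adjusted p from 0.388 for Xbp1 to 0.779 for Irf4), a test passed by 48.2% of all genes tested. None differed in its effect between days either, with adjusted p from 0.152 for Irf4 to 0.947 for Igj. When the 10 group means of Bcl6 were put in order, all 5 control groups stood above all 5 irradiated groups. The step between the lowest control group, day 9, and the highest irradiated group, day 30, was 1.05 and was the only one between neighbours whose ranges did not overlap. For Irf4 the corresponding step, from the day 9 controls to the day 7 irradiated mice, was 1.65 and was again the only one. For Igj every pair of neighbours overlapped, and the groups could not be ordered.

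Blood holds other cells that make these genes, and their marker genes were read beside the members, against 34.4% of all genes called lower and 28.6% called higher at 1 day or more. Of 17 tested B cell markers 16 were called lower at 1 day or more and 15 at all 5 days, and the mean level over all 18 B cell markers ran from 4.69 to 5.79 over single control arrays and from 2.58 to 4.64 over irradiated arrays. Monocyte markers were called lower in 7 of 10 genes, 4 of them at all days, led by Ccr2 with a mean change over the days of -2.50, and their mean level per array ran from 3.37 to 5.28 in control and from 2.82 to 4.30 in irradiated mice. T cell markers were called lower in 5 of 16 genes, NK cell markers in 2 of 7 and neutrophil markers in 2 of 10, none of these shares above that of all genes. Their mean changes over the days were still mostly below 0, in 14 of 16, 7 of 7 and 8 of 10 genes. The list medians were -0.79, -0.68 and -0.53, all under the 0.21 of all genes tested. Erythroid markers were called higher in 7 of 9 genes, with a median change of 0.85 against 0.21 over all genes tested. All 18 B cell, all 20 T cell and all 10 monocyte markers passed detection. What part B cell, monocyte or red cell content had in the levels of Bcl6, Irf4 or Xbp1 was not tested.

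The members were therefore also set against the B cell markers within each array, as the level of the member minus the mean level of the 18 markers, and the groups compared by exact two-sided permutation tests adjusted over 55 values. The B cell marker mean itself changed by -1.99, -1.59, -1.96, -2.08 and -2.10 from day 4 to day 30. Over the same days the median change of all genes tested was 0.04, 0.07, -0.17, 0.11 and 0.01. A typical gene thus also stood higher against these markers in irradiated blood. The share of all genes passing this test was not computed. Against the B cell marker mean, Igj was higher in irradiated blood by 1.69, 1.51, 2.04, 1.84 and 2.10, and Xbp1 by 1.28, 1.06, 1.31, 1.28 and 1.33. Both passed at all 5 days (exact permutation test, adjusted p = 0.0449 at day 4, where 4 against 4 mice allow no smaller raw p than 0.0286, and 0.00661 at the others). At day 4 the Igj value missed the test without control replicate 3 or irradiated replicate 1 or 4, when it lay at 1.51 to 1.66 (Igj minus B cell markers at day 4). All 4 irradiated values of that day lay above every control all the same, and 1 mouse fewer leaves the test fewer arrangements. In single mice of day 30 the Igj difference ran from -3.69 to -1.94 in controls and from -1.41 to 0.46 in irradiated mice, without overlap. The Xbp1 difference of that day ran from 0.18 to 1.27 in controls and from 1.38 to 2.13 in irradiated mice, again without overlap.

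Relative to the B cell markers Bcl6 changed by -0.08 at day 4 and 0.26 at day 7, neither past the test, and it fell less than they did at day 9 (0.58, exact permutation, adjusted p = 0.0176) and day 30 (0.96, adjusted p = 0.00661). Its value at day 25 was 0.29 and did not pass. Irf4 fell further than the B cell markers at day 4 (-0.49, exact permutation, adjusted p = 0.0449) and day 30 (-1.22, adjusted p = 0.00661), and its values at days 7, 9 and 25 were -0.21, -0.13 and -0.22. The Irf4 value at day 4 no longer passed on leaving out any 1 of the 4 controls, with a range of -0.58 to -0.38 over all 8 omissions (Irf4 minus B cell markers at day 4). All 4 irradiated values of that day lay below every control all the same. With 1 mouse fewer the exact test has fewer arrangements to draw on. Prdm1 fell less than the B cell markers at days 7, 25 and 30, by 0.84, 1.32 and 1.65 (exact permutation, adjusted p = 0.0149, 0.0149 and 0.0113), as measured on mostly dim spots. Fkbp11 passed at 4 days with values of 1.90 to 2.49, but it was well above background on 14 of 56 arrays only.

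Bcl6 was also set against the other members. Relative to Igj it was lower in irradiated blood by -1.77, -1.25, -1.46, -1.55 and -1.14, past the exact permutation test at all 5 days. The day 30 value (Bcl6 minus Igj at day 30) missed the test on leaving out any of 8 of the 12 mice, controls 1, 3, 4 and 5 and irradiated replicates 1, 3, 4 and 5, and ran from -1.32 to -0.81. Relative to Xbp1 the difference was -1.36, -0.80, -0.72, -0.98 and -0.38, past the test at all but day 30 (exact permutation, adjusted p = 0.0562). Relative to Irf4 Bcl6 was higher at day 30 by 2.18 (exact permutation, adjusted p = 0.00661), and the earlier values of 0.41, 0.48, 0.72 and 0.51 did not pass. Against Prdm1, its partner in mutual repression, the difference passed at day 25 alone (-1.03), and the values at the other days were -1.05, -0.58, -0.14 and -0.69.

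**Figure D3:**
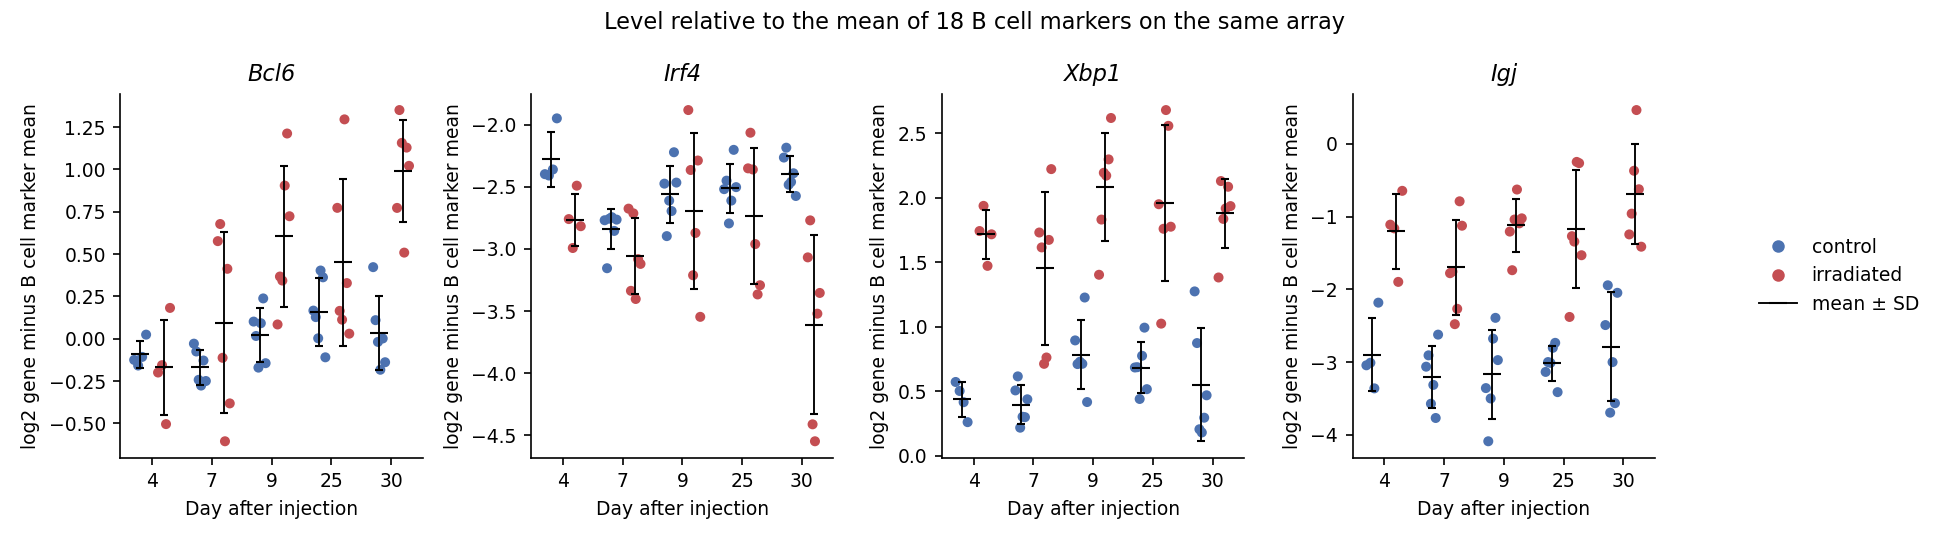
Level of Bcl6, Irf4, Xbp1 and Igj minus the mean of the 18 B cell markers of the same array (log2) in each mouse by day after injection, with mean ± SD. The irradiated mice stand above the controls in Xbp1 and Igj at all days, overlap them in Bcl6 except at day 30, and lie lowest in Irf4 at day 30.

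The stretch of 250 bases before the transcription start is shown for Bcl6 and Irf4, which fell together, and for Igj, which did not. The sequences are from RefSeq on GRCm38.p6, another build than that of the probe positions, and each is written on the strand of its gene. Capitals mark CCACG, the core of the element bound by Xbp1, and GAAAG, part of the Prdm1 site, on either strand, so that CGTGG and CTTTC are the same words read from the other strand.
Bcl6, first of 2 starts, chr16:23988853-23989102, minus strand: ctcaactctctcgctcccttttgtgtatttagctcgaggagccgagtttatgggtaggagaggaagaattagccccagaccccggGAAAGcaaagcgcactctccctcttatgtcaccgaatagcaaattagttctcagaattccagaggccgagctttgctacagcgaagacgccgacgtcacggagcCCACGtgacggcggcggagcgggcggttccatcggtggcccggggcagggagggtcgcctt
Irf4, chr13:30748983-30749232, plus strand: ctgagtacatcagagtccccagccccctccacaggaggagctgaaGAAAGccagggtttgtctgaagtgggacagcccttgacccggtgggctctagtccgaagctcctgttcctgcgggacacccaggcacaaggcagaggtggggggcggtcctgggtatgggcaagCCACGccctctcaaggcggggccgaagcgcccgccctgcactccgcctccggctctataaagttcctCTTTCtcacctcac
Igj, now named Jchain, chr5:88527898-88528147, minus strand: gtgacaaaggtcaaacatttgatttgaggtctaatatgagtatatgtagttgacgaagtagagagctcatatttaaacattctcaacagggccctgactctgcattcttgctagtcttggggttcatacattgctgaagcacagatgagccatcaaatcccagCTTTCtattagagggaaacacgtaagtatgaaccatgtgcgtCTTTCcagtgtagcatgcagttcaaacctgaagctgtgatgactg
Of 32851 promoter stretches of this length, 28.3% hold CCACG and 51.5% hold GAAAG, so both words are common. Bcl6 has CCACG from 61 to 57 and GAAAG from 165 to 161 bases before the first of its 2 starts. Before its second start, not shown, Bcl6 has GAAAG from 162 to 158 and no CCACG. Irf4 has CCACG from 81 to 77 and GAAAG at 2 places, and Igj has GAAAG at 2 places and no CCACG. All 7 members were found in the table with 9 starts between them, 5 of which held CCACG and 6 GAAAG. The longer words TGACGTGG, an Xbp1 element, and TTCCTAGAA, a Bcl6 element, are present in 0.563% and 0.347% of all promoters and in 0 of the 9. Base composition differed too, with G and C making up 58.4% of the Bcl6, 63.6% of the Irf4 and 42.0% of the Igj stretch.

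Genes in the same pathway were read as lists, beside a background in which 5018 of 14584 genes (34.4%) were called lower at 1 day or more, 1225 (8.4%) at all 5 and 4164 (28.6%) higher at 1 day or more. The lists share genes, so their counts are not separate evidence. Cxcr5 stands in the germinal centre and follicular helper lists, and Bach2 in the germinal centre and plasma cell decision lists. Pou2af1 and Spib are also among the B cell markers. Of 10 further plasma cell markers tested 7 were called lower, 4 of them at all days, and 1 was called higher. Tnfrsf13b, the receptor TACI, changed by a mean of -2.29 over the days, Mzb1, an endoplasmic reticulum chaperone of B lineage cells, by -1.72, and Txndc5, a disulphide isomerase, by -1.52. TACI and Mzb1 are also made by B cells. The median over the 10 genes was -1.33, against 0.21 over all genes tested.

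Among 15 other factors of the plasma cell decision 8 were called lower, 6 of them at all days, and 2 higher. The 4 with the largest mean change were Bach2, which represses Prdm1, at -1.99, Irf8, a partner factor of the B cell state, at -1.86, Pou2f2, the octamer factor Oct-2, at -1.80, and Pou2af1, its coactivator, at -1.78. All 4 were called at every day. The mean change was below 0 in 11 of the 15. Ell2, an elongation factor of secretory mRNA processing, and Zbtb20 were called higher at 1 day each, with 1.41 and 1.36 at day 30, and Pax5, which holds B cell identity, was called at no day (mean 0.17). Of 6 germinal centre genes tested 3 were lower at all days, Cxcr5, Bach2 and Plxnb2, and 1, Gcsam, was called higher at day 30 (1.19). Of 7 follicular helper T cell genes, in which Bcl6 is the leading factor, 4 were lower at 1 day or more and 1, Tox2, was higher at 1 day (mean over the days 0.64).

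The proteins with which Bcl6 represses were followed through 9 tested genes, of which 5 were called lower and 2 higher. Sin3a changed by a mean of -1.77 and Bcor, a corepressor that binds Bcl6 directly, by -1.73, both called at all 5 days. Of 18 tested genes that Bcl6 is known to repress 7 were called lower and 6 higher at 1 day or more, with a median of -0.45. These shares lay close to the 34.4% and 28.6% of all genes tested, so the calls do not set this list apart. Il18 changed by a mean of -1.70, S1pr1, a receptor for exit from lymphoid tissue, by -1.66 and Gpr183, which guides B cells, by -1.57, in the same direction as Bcl6 itself. Cdkn1a, the cell cycle inhibitor p21 and also a target of p53, was called higher at 4 days, with changes of 1.87, 1.65, 1.99 and 1.23 at days 4, 7, 9 and 25 and 0.15 at day 30. It lies outside the rule for naming genes and was picked after its values were seen, as were Ell2, Zbtb20, Pax5, Gcsam and Tox2. The 5 of 6 tested targets of Prdm1 that were called lower included Spib at -2.24 and Id3 at -1.58, both of which Prdm1 is known to repress in B lineage cells.

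The secretory programme that Xbp1 drives was represented by 31 tested genes, of which 21 were called lower at 1 day or more, 6 at all days, and 1 higher. Syvn1, a ubiquitin ligase that clears misfolded proteins, changed by a mean of -1.76, Pdia6, a disulphide isomerase, by -1.54 and Rpn1, of the complex that attaches sugars, by -1.49. The median over these 31 genes was -0.98. Of 7 sensors and effectors of the unfolded protein response 4 were called lower, with Eif2ak3, the kinase PERK, at -1.57 and Hsp90b1, the chaperone Grp94, at -1.23. Relatives of the dim members could be measured in part, with 2 of 4 secretory FK506 binding proteins lower and 1 higher and both tested syndecans, Sdc4 and Sdc3, lower at some days.

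**Figure D4:**
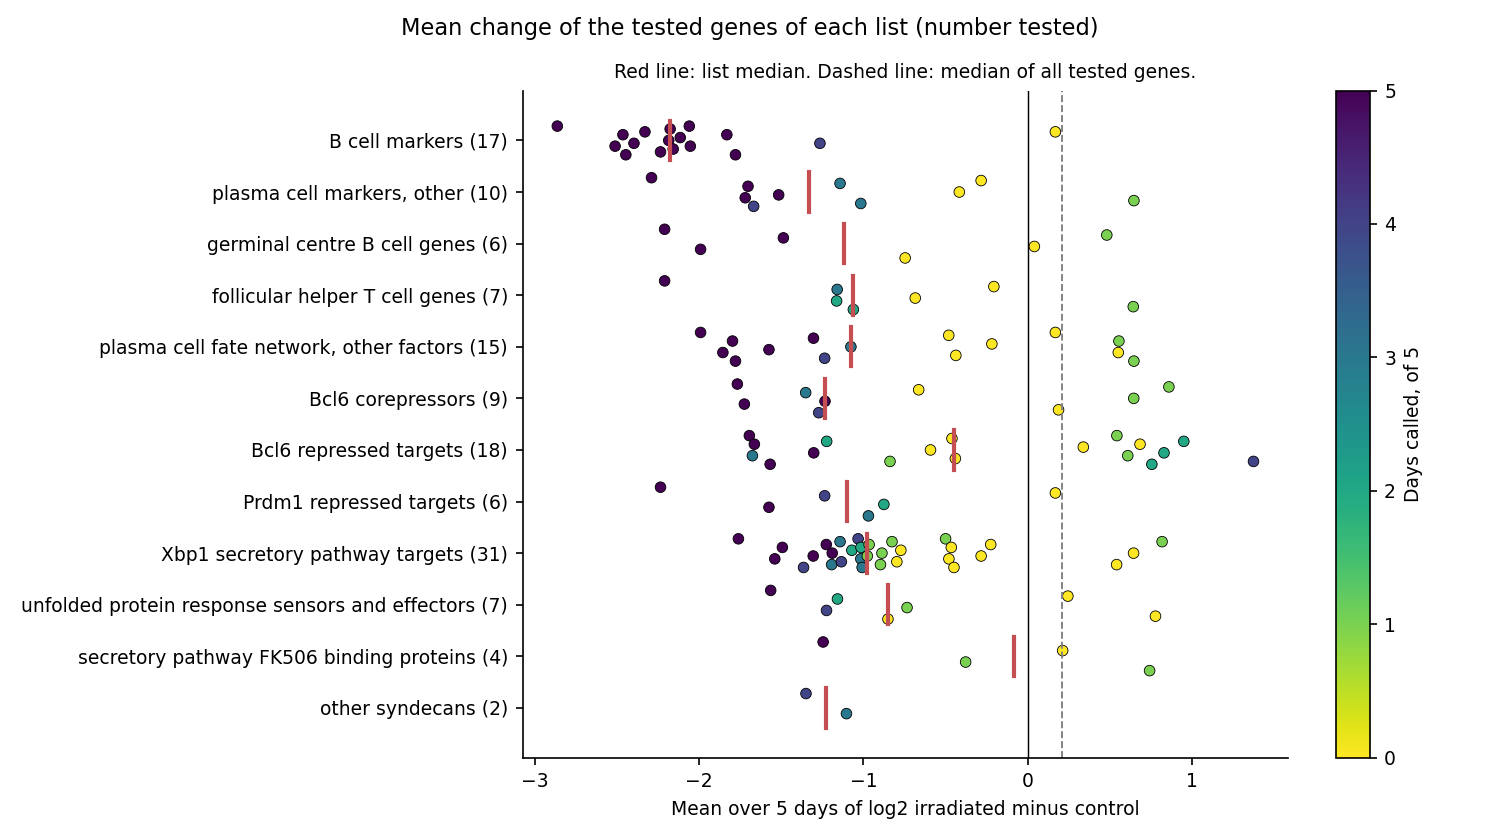
Mean over the 5 days of the change (irradiated minus control, log2) of each tested gene in 12 lists, with points coloured by the number of days called, red lines at list medians and a dashed line at the median of all genes tested, 0.21. B cell markers centre on -2.18, the further plasma cell markers on -1.33 and the genes repressed by Bcl6 on -0.45, these last spread to both sides of 0.

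Genes whose levels ran most closely with each member over the 56 arrays were sought among 18800 genes by Pearson correlation. These values are descriptions, since all arrays share their scaling and the difference between the groups, and the correlation of deviations from group means is given beside each. For Bcl6 the closest were Rara, the retinoic acid receptor alpha (0.96, deviations 0.88), Plp2 (0.96, deviations 0.88) and Trim30a (0.96, deviations 0.90). For Irf4 they were Cxcr5, the follicular homing receptor (0.97, deviations 0.86), Tlr1 (0.96, deviations 0.86) and Cd74, the invariant chain of MHC class II (0.96, deviations 0.88). For Xbp1 the closest included Ormdl2 (0.93, deviations 0.87) and Wdr61 (0.93, deviations 0.88).

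Igj had 1 close companion, Igh-VJ558, an immunoglobulin heavy chain variable family (0.92, deviations 0.94), and the next gene, Cd28, followed at 0.50. Prdm1 came closest to Tnfrsf18, the receptor GITR of regulatory T cells (0.82, deviations 0.74), and the gene closest to Fkbp11 reached 0.61. Between members, the levels of Bcl6 correlated at 0.84 with Irf4 (deviations 0.65), at 0.84 with Xbp1 (deviations 0.71), at 0.72 with Prdm1 (deviations 0.58) and at 0.26 with Igj (deviations 0.30). The deviations of Igj correlated at 0.41 with Xbp1 and at 0.35 with Prdm1, those of Irf4 at 0.31 with Xbp1 and at 0.20 with Prdm1.

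How the arrays were scaled decided how many members passed the call but not the direction of Bcl6, Irf4, Prdm1 or Xbp1, which were below 0 at all 5 days under 5 scalings. The median change of all genes lay between -0.17 and 0.11 as reported here, between 0.46 and 0.81 with the 75th percentile of each array as its zero, and between -0.83 and -0.49 with 1 array as a reference. Taken relative to that median, Bcl6 changed by -2.11 to -1.15 as reported, by -2.31 to -1.44 with the 75th percentile and by -1.80 to -0.89 with the reference array. Irf4 changed by -3.33 to -1.87 as reported and by -3.73 to -2.06 with the 75th percentile, on the same footing. Without that step the 75th percentile left Bcl6 at -0.98, -0.98 and -0.96 at days 7, 9 and 30, just short of 2-fold, and Irf4 called at all days. Lower genes made up 51.9 to 89.2% of all calls as reported, 20.8 to 36.1% with the 75th percentile and 82.8 to 97.9% with the reference array.

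Another background correction, normexp on the mean spot and local background signals with an offset of 50, ended the calls of Bcl6 and Irf4 at all 5 days, and left between 0 and 90 genes of the whole array called lower. Bcl6 changed there by -2.09, -1.36, -1.23, -0.40 and -0.21 and Irf4 by -0.79, -0.70, -0.72, -0.32 and -0.64. The median of all genes moved as well, from -1.12 at day 4 to 0.63 at day 30. Relative to it Bcl6 changed by -0.97, -0.79, -0.96, -0.93 and -0.84, and Irf4 by 0.34, -0.12, -0.45, -0.85 and -1.27, so that at day 4 Irf4 stood above the typical gene under this correction. The median spot had a mean signal of 94.5 over a local background of 49 and a processed signal of 15.5, beside the offset of 50. What part the offset had in the lost calls was not tested.

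**Figure D5:**
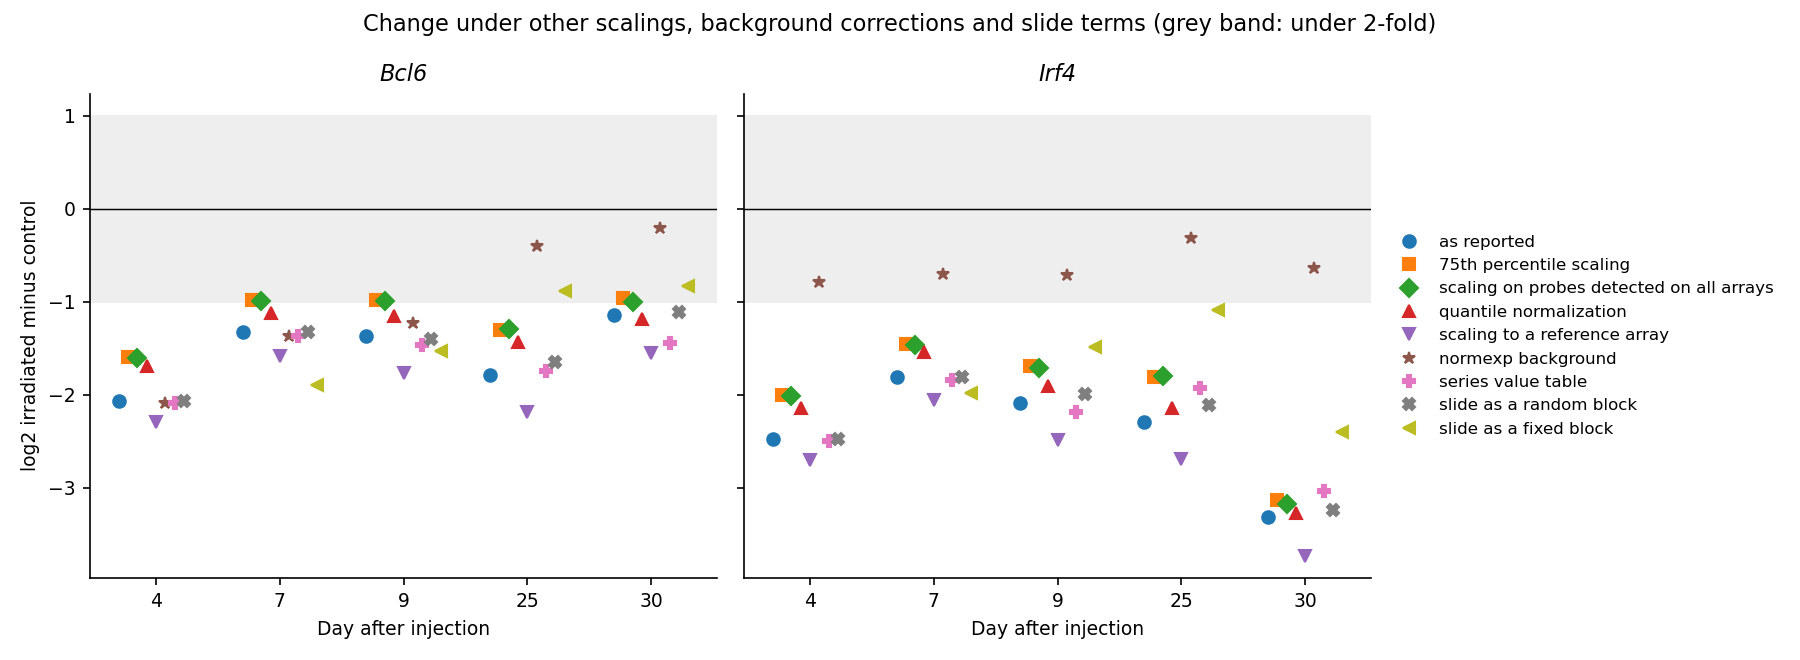
Change of Bcl6 and of Irf4 (irradiated minus control, log2) at each day as reported and under 8 other scalings, background corrections, value tables or slide terms, with a grey band for changes under 2-fold. Both genes stay below 0 under every setting drawn, and normexp gives the smallest changes of Bcl6 at days 25 and 30 and of Irf4 at all days.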

How the data were processed

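Whole-blood RNA, with globin transcripts reduced, was labelled with Cy3 and hybridised by the authors to 1-colour Agilent whole mouse genome arrays, 1 mouse an array. The deposited scanner files give per spot a background-subtracted processed intensity from Agilent Feature Extraction (version 10.7 in the submitters' notes, 11.5.1.1 in the file headers). The deposited value table holds log2 values of the same arrays, already scaled by the authors, and served as an alternative. Here the log2 processed signal was centred on the median of the 43020 gene spots of each array. Probes not above background or flagged as non-uniform on 25% or more of the arrays were dropped, and so was any probe for which under 20% of arrays lay 1.5-fold or more away from the probe's median. Spots of 1 probe were averaged and the brightest probe stood for a gene, a step that may differ from the study's own. That left 14584 genes. Each day was fitted on its own with limma 3.58.1 (R 4.3.3). A call needed an unadjusted p under 0.001 and 2-fold, and adjusted p-values are Benjamini-Hochberg over all genes tested. The fit was tested on simulated data. The F tests used 1 fit of all 10 groups. Promoters came from RefSeq on GRCm38.p6. The text names all 7 members, of each list at most 4 genes called at the most days, ties by mean change, and genes among the 3 most like each member, and some genes that this rule picks are not reported here. The members and lists were chosen with earlier results of these data known. The alternatives covered scaling, background correction, filters, probe choice, slide and scan, the replicate block and leaving out each mouse. Each array is a separate mouse, and their number limits the precision.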

Additional observations from a re-analysis of the deposited data

Results flagged for a closer look

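In 70 groups of 4 or 6 mice, 10 for each gene, 5 single values stood apart from the rest of their group by Dixon's ratio, and chance flags about 1 in 20 groups. Prdm1 was at -1.70 in control replicate 4 of day 30, when the other 5 controls lay between 0.23 and 1.20. Fkbp11 was at 3.05 in control replicate 3 of day 25, against -0.76 to 0.27 in the others. Igj was at 3.08 in control replicate 4 of day 4, against 2.27 to 2.38. Sdc1 was at 0.55 in irradiated replicate 5 of day 7, against -1.94 to -1.49, and at 1.15 in irradiated replicate 5 of day 25, against -1.75 to -0.87. Neither of these Sdc1 spots was well above background.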

How the results depend on the processing

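The changes of Bcl6 and Irf4 stayed below 0 under every alternative, but with normexp Irf4 at day 4 lay above the median of all genes, and calls did not always hold. The cause was not tested. The number of members called lower, 2 as reported, was 1 at days 7, 9 and 30 with the 75th percentile, at days 7 and 9 with scaling on probes detected on all arrays, at days 7 and 25 with quantile normalization, at all days with only genes well above background on 75% of arrays (which leaves Irf4 untested), and at days 4, 7 and 9 with a test of each gene alone that allows unequal variances (0 at day 25), which is not the random-variance test of the study. It was 4 at day 9 with a reference array, by Prdm1 and Xbp1, and 3 at days 25 and 30, by Xbp1, 0 at all days with normexp, 1 at day 7 (Prdm1), 0 at days 9 and 25 and 1 at day 30 (Irf4) with slide as a fixed block, 1 at day 30 without arrays scanned on another date, and 1 to 2 at day 7 on leaving out 1 mouse. Xbp1 missed the variation filter under the first 3 of these scalings and was untested there.

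Genes of the whole array called lower, as reported 3371, 2345, 2610, 3866 and 3105 from day 4 to day 30, came to 1123, 698, 908 and 1116 at the first 4 days with the 75th percentile, to 1163, 707, 965 and 1055 with probes detected on all arrays, to 1756, 1005, 1530 and 1639 with quantile normalization and to 1883, 1266, 1716 and 2086 with the unequal-variance test. With a reference array they were 4045, 4706, 6018 and 5033 from day 7 on, with normexp 3, 8, 90, 0 and 1, with slide as a fixed block 679, 49 and 215 from day 9 on, and without the arrays scanned apart 572 at day 30. The genes past the F test, control days, went from 7026 to 1232 with normexp, 10593 without the variation filter and 3828 with slide as a random block, and genes past the F test, effect between days, from 3277 to 976 and 545 with normexp and the random slide block. With probes detected on all arrays 1 member, Irf4, passed that last test (adjusted p = 0.0469). With normexp 12 differences from the B cell markers and 4 between Bcl6 and another member passed, as against 21 and 14.

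Signs turned mainly for small changes. Igj was 0.18, 0.26, 0.25 and 0.18 at days 4, 7, 25 and 30 with the 75th percentile, 0.17, 0.26, 0.26 and 0.14 with probes detected on all arrays and 0.13, 0.22, 0.20 and 0.14 with quantile normalization. The Igj change at day 9 was -0.31 with a reference array, -0.0089 in the value table, -0.50 with slide as a fixed block and -0.010 with slide as a random block, and at day 25 0.017 with the fixed block. Fkbp11 was -0.067 at day 9 and -0.029 at day 30 with a reference array and -0.38 at day 9 with the fixed slide block. Prdm1 at day 25 was 0.16 in the value table and 0.017 with the fixed slide block. With normexp Xbp1 was 0.36 at day 25 and 0.082 at day 30, Irf4 minus the B cell markers was 1.18, 0.82, 0.76, 0.24 and 0.25 from day 4 to day 30, and Bcl6 minus Irf4 was -1.30, -0.66, -0.51 and -0.081 up to day 25. On leaving out 1 mouse, Igj ran from -0.23 to 0.056 at day 7, -0.077 to 0.27 at day 9 and -0.24 to 0.20 at day 30, Fkbp11 from -0.32 to 0.61 at day 9, Bcl6 minus Prdm1 from -0.26 to 0.023 and Irf4 minus the B cell markers from -0.30 to 0.037 at day 9, and Bcl6 minus the B cell markers from -0.19 to 0.034 at day 4.

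Replicate numbers did not pair the mice, since 8 of 28 same-numbered pairs correlated above 0.1 in their deviations (range -0.28 to 0.34). With the replicate block the count of members was 1 at day 7, where Bcl6 missed the call (limma, adjusted p = 0.0045), and the block changed no other call of a member. Low signal limits Irf4 in irradiated blood and Prdm1, Fkbp11 and Sdc1 in both groups.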
